A study of Mus musculus with 14 samples.

Results

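Complex I, or NADH dehydrogenase, is the entry enzyme of the mitochondrial respiratory chain: it takes electrons from NADH, passes them along a row of iron-sulfur clusters to ubiquinone and pumps protons across the inner membrane. Core subunits carry out this chemistry, many supernumerary subunits surround the core, and assembly factors help to build the enzyme without staying in it. Cardiac muscle depends on mitochondrial respiration throughout life and is rich in the enzyme, and neurons use it to meet the cost of signalling. The genes described here were those whose symbol starts with Nduf in the annotation of the array. Each gene was represented by the brightest of its probe sets over the 14 arrays, among probe sets that name no other gene. This gave 44 genes of 18194 measured, 36 subunit genes and 8 assembly factor genes (Ndufaf). The 36 were taken by symbol and include Ndufa4, now known as a subunit of cytochrome c oxidase, and its paralog Ndufa4l2. The subunits encoded by mitochondrial DNA were not analysed here.

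Expression was measured as log2 values on Affymetrix mouse arrays in 4 groups of C57BL/6 (C57/BL6) mice with no treatment. Hippocampus and heart were taken from pups 7 days old, whose sex was not given, with 3 biological replicates of each tissue. Hippocampus and heart RNA of males 10 weeks old was bought, with 2 biological replicates of each tissue and 2 technical arrays for each, which were averaged to leave 10 biological samples. The titles give these 2 replicates, while the source names number the adult arrays of each tissue as 4 biological replicates, and no source says that the adult replicates were separate animals. The p-values that involve adults may therefore measure technical spread. Age and RNA source cannot be told apart.

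Across the whole table the array medians lay between 8.73 and 8.98. All 10 cardiomyocyte markers were measured, and their mean was 15.0 to 15.4 in pup heart, 14.1 to 14.4 in adult heart and 9.48 to 9.66 in adult hippocampus. In pup hippocampus it was 11.7, 10.6 and 9.87 in replicates 1, 2 and 3, and cardiac actin (Actc1) was at 14.8, 12.5 and 10.3. By the mean of the 10 markers the first pup hippocampus sample thus carried the most heart marker signal. Ryr2, Mybpc3 and Nppa were instead highest in replicate 2. The mean of 10 neuron markers was 12.2 to 12.8 in hippocampus and 10.8 to 11.4 in heart. Of these 10 markers 4 were lower in heart than in hippocampus in pups and 4 in adults. The others did not pass. Hybridization controls, added to every array, differed by -2.35 between adult and pup hippocampus arrays and by -2.43 between adult and pup heart arrays, while the differences between tissues were 0.01 in pups and -0.07 in adults. Poly-A controls, which are added to the RNA, differed by 0.27 and 0.50 between the ages in hippocampus and heart, in the opposite direction. The part of these differences in the results below was not tested.

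The promoters of 39 of the 44 genes were matched in RefSeq (GRCm38.p6), as 41 windows that run from 250 bases before to 50 bases after a transcription start. Ndufa2, Ndufs1, Ndufa4l2, Ndufaf6 and Ndufb9 had no matched entry. The windows were searched on both strands for CCGGAAG (GABPA and other ETS factors), GCATGCG (NRF1), AAGATGG (YY1) and AAGGTCA (ESRRA and other nuclear receptors), which are letters bound by regulators of mitochondrial genes. AAGATGG was found in 17.1% of the Nduf windows and in 6.38% of the windows of all measured genes, and GCATGCG in 9.76% and 5.09%. CCGGAAG was found in 14.6% and 13.0%, and AAGGTCA in 7.32% and 3.92%. At least 1 of the 4 was present in 19 windows, 46.3%, against 25.4% for all measured genes. The 7 genes with AAGATGG were Ndufa3, Ndufa9, Ndufaf8, Ndufb8, Ndufc1, Ndufs4 and Ndufs7. These matches describe letters and not bound sites. 4 windows are printed 5′ to 3′ in the direction of the gene, with the motif found in capitals. They belong to genes whose differences are described below: Ndufa8 and Ndufs7 between the tissues, Ndufs8 and Ndufb11 between the ages.
Ndufa8: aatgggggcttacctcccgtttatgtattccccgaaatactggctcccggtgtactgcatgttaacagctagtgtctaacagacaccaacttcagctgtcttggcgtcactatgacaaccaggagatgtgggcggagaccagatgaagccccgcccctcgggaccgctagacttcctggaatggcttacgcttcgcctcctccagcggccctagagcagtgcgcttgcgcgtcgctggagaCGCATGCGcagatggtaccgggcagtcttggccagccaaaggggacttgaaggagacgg
Ndufs7: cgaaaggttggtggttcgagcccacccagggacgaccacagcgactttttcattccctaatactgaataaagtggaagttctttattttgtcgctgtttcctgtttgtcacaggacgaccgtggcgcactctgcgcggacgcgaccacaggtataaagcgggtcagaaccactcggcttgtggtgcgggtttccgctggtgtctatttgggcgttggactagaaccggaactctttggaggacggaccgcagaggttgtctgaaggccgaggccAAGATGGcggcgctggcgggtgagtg
Ndufs8: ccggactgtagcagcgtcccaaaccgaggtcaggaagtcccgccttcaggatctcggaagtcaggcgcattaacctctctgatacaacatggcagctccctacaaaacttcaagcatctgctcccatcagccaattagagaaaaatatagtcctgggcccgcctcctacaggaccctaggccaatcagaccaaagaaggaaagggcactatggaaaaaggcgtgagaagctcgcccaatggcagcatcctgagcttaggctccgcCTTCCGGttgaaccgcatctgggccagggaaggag
Ndufb11: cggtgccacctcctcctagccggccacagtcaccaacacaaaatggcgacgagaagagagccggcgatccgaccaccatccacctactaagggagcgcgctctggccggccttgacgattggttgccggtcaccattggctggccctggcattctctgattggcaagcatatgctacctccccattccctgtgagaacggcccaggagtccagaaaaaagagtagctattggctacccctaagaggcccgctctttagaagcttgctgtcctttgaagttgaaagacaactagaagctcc
The Ndufa8 window (chr2:36049289-36049588, minus strand) holds GCATGCG in overlapping copies on both strands, shown as 1 run of capitals. The Ndufs7 window (chr10:80249199-80249498, plus strand) holds AAGATGG just before its end. In the Ndufs8 window (chr19:3912725-3913024, minus strand) CCGGAAG lies on the opposite strand and is read as CTTCCGG. None of the 4 motifs was in the Ndufb11 window (chrX:20617570-20617869, minus strand).

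Most Nduf genes were expressed most in pup heart. The highest of the 4 group means was that of pup heart for 37 of the 44 genes, against 20.5% of all genes. The lowest was that of adult hippocampus for 28 of the 44, against 22.4% of all genes. The exceptions at the top were Ndufc2 (pup hippocampus), Ndufa4l2 and Ndufb2 (adult hippocampus), and Ndufaf5, Ndufaf6, Ndufaf8 and Ndufs4 (adult heart). In whole tissue, fewer cells of a type and less RNA per cell cannot be told apart.

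**Figure D1:**
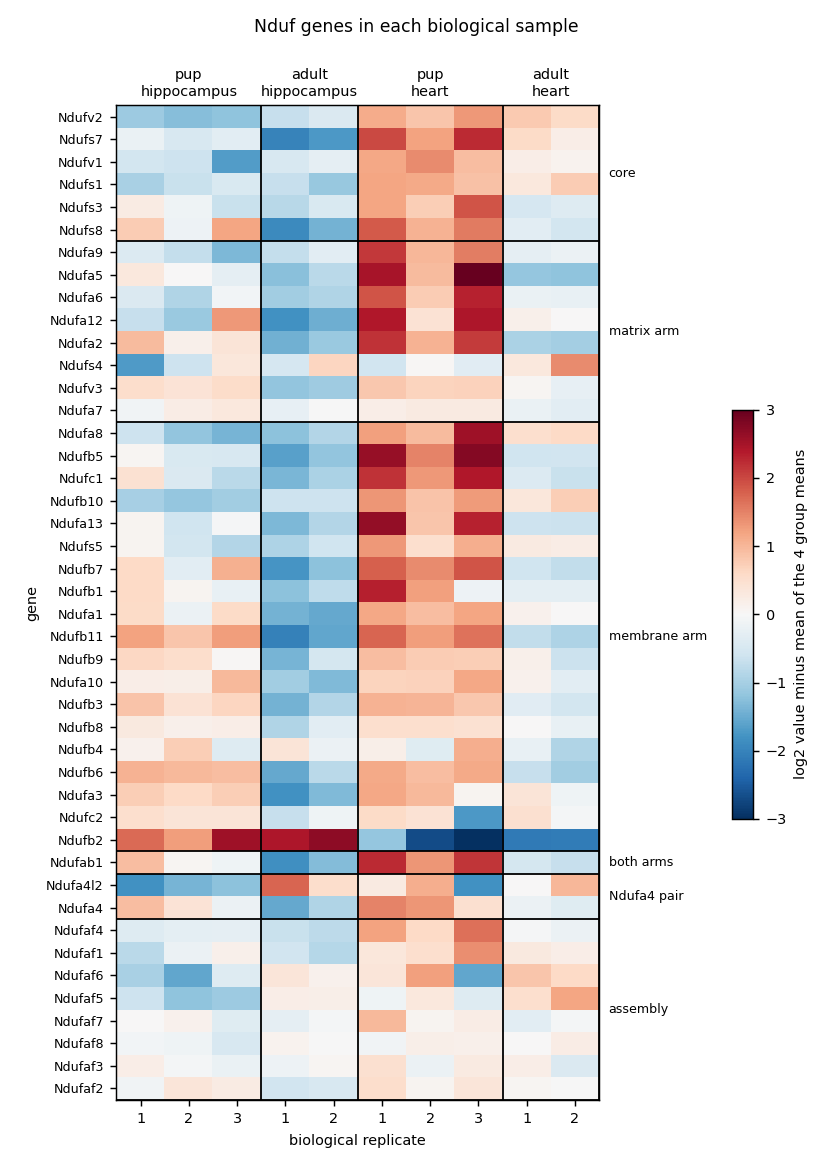
Heat map of the 44 Nduf genes (rows, ordered by role) in the 10 biological samples (columns), as log2 value minus the mean of the 4 group means of the gene. Most rows are reddest in the 3 pup heart samples and bluest in the 2 adult hippocampus samples, and the Ndufb2 row runs the other way.

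The samples of a group were not equal. Pup heart replicate 2 had the lowest of the 3 pup heart values for 26 of the 44 genes, 59.1%, while it was lowest for 30.5% of all genes. Pup hippocampus replicate 1, the sample with the most heart marker signal, was the highest of its group for 26 of the 44 genes, 59.1% against 38.0% of all genes. The median SD of the Nduf genes was 0.49 in pup heart, 0.34 in pup hippocampus, 0.26 in adult hippocampus and 0.15 in adult heart. Ndufa4l2 had the widest spread in pup heart, with an SD of 1.50, and Ndufa12 the widest in pup hippocampus, with 1.29. Values close to 16, the top of the table, can be compressed. The group mean was over 15.5 for Ndufa7 and Ndufv3 in both pup tissues and for Ndufb8 in pup heart, and for none of the 44 genes in an adult tissue.

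The first comparison asked how pup heart and pup hippocampus differed. Of the 44 genes 18 were higher in pup heart, 1 was lower and 25 did not pass the test, with a background of 7.43% of all genes higher and 8.27% lower. The difference was above 0 for 42 of the 44 genes, and its median was 0.99 on the log2 scale against 0.10 for all genes. For 25 genes every pup heart sample lay above every pup hippocampus sample, where 17.9% of all genes did so. Without pup hippocampus replicate 1 the counts were 17 higher and 1 lower, and without pup heart replicate 2 they were 18 and 1. Pup heart also carried more signal of other cells: the mean of the 6 fibroblast markers was 13.5 to 14.5 in pup heart and 10.7 to 11.1 in pup hippocampus, with 5 higher. That of the 5 endothelial markers was 11.8 to 12.1 and 10.2 to 10.5, with 2 higher. Whether they contribute to the Nduf differences was not tested.

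Of the 6 core subunit genes measured, 5 were higher in pup heart. Ndufv2, an iron-sulfur subunit next to the NADH site, was at 10.86, 10.69 and 10.74 in pup hippocampus and at 13.07, 12.78 and 13.25 in pup heart. The groups were far apart, with a difference of 2.27 ± 0.20 (SE, 3 against 3 samples, adjusted p = 8.06e-05). Ndufs7, which carries the cluster that hands electrons to ubiquinone, was at 12.88, 12.61 and 12.76 in pup hippocampus and at 15.07, 14.28 and 15.32 in pup heart. Its difference was 2.14 ± 0.28 (adjusted p = 0.000927), and the lowest pup heart sample was replicate 2. Ndufv1, the subunit that binds NADH, was at 12.10, 12.03 and 10.97 in pup hippocampus and at 13.82, 14.06 and 13.59 in pup heart. It was higher in pup heart by 2.12 ± 0.31 (adjusted p = 0.00159), with no overlap, although the third pup hippocampus sample lay well below the other two. Ndufs1, the largest iron-sulfur subunit, was at 12.91, 13.21 and 13.43 in pup hippocampus and at 15.05, 15.02 and 14.74 in pup heart. The difference was 1.75 ± 0.23 (adjusted p = 0.000971) without overlap.

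Ndufs3, a core subunit of the ubiquinone-binding module, was at 11.59, 11.20 and 10.65 in pup hippocampus and at 12.52, 12.08 and 13.21 in pup heart. It was higher in pup heart by 1.45 ± 0.34 (adjusted p = 0.0177). Ndufs8, an iron-sulfur subunit of the same module, was at 14.23, 13.31 and 14.64 in pup hippocampus and at 15.31, 14.51 and 15.03 in pup heart. These groups overlapped, and the difference of 0.89 ± 0.36 did not pass (adjusted p = 0.139). The probe set 1455283_x_at overlapped too. In 1423907_a_at, 1423908_at, 1434212_at and 1434213_x_at every pup heart value lay above every pup hippocampus value. For 1423907_a_at these were 7.78, 7.44 and 7.54 in pup hippocampus and 10.07, 9.52 and 9.61 in pup heart. The overlap of Ndufs8 thus depends on the probe set.

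Among the supernumerary subunits of the matrix arm, which reaches into the mitochondrial matrix, 4 of 8 were higher in pup heart (Ndufa2, Ndufa5, Ndufa6 and Ndufa9) and none was lower. Ndufa9, a subunit near the ubiquinone site, was at 11.51, 11.20 and 10.57 in pup hippocampus and at 14.03, 12.91 and 13.46 in pup heart, a difference of 2.37 ± 0.34 (adjusted p = 0.00138). All pup heart values were above all pup hippocampus values. Ndufa12 differed by 1.93 ± 0.68 and did not pass (adjusted p = 0.0952): its pup hippocampus values were 11.93, 11.51 and 13.93 and its pup heart values 15.03, 13.07 and 15.05.

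Of 19 supernumerary subunits of the membrane arm, which holds the proton pumps, 7 were higher in pup heart and 1 lower. Ndufa8, a subunit on the face of the arm toward the intermembrane space, was at 10.88, 10.34 and 10.11 in pup hippocampus and at 12.74, 12.46 and 14.06 in pup heart. Its difference of 2.64 ± 0.40 (6.24-fold, adjusted p = 0.0021) was the largest increase among the 44 genes, and the third pup heart sample was the highest. Ndufb5, an integral membrane subunit, was at 12.39, 11.90 and 11.87 in pup hippocampus and at 14.95, 13.83 and 15.10 in pup heart, which is 2.58 ± 0.34 higher (adjusted p = 0.000943). Here too the groups were apart and pup heart replicate 2 was the lowest of its group. The other 5 that were higher were Ndufb10, Ndufc1, Ndufa13, Ndufs5 and Ndufb7, by 1.25 to 2.22. Ndufab1, the mitochondrial acyl carrier protein that sits in both arms, was higher by 1.62 ± 0.35 (adjusted p = 0.0126).

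The gene that ran the other way was Ndufb2, a small membrane arm subunit. Its brightest probe set was at 12.98, 12.54 and 13.83 in pup hippocampus and at 10.13, 8.60 and 8.31 in pup heart. It was lower in pup heart, with a difference of -4.10 ± 0.48 (adjusted p = 0.000456), the largest difference of any of the 44 genes between the pup tissues. The other two probe sets of Ndufb2 were higher in pup heart, as described with the probe sets below.

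**Figure D2:**
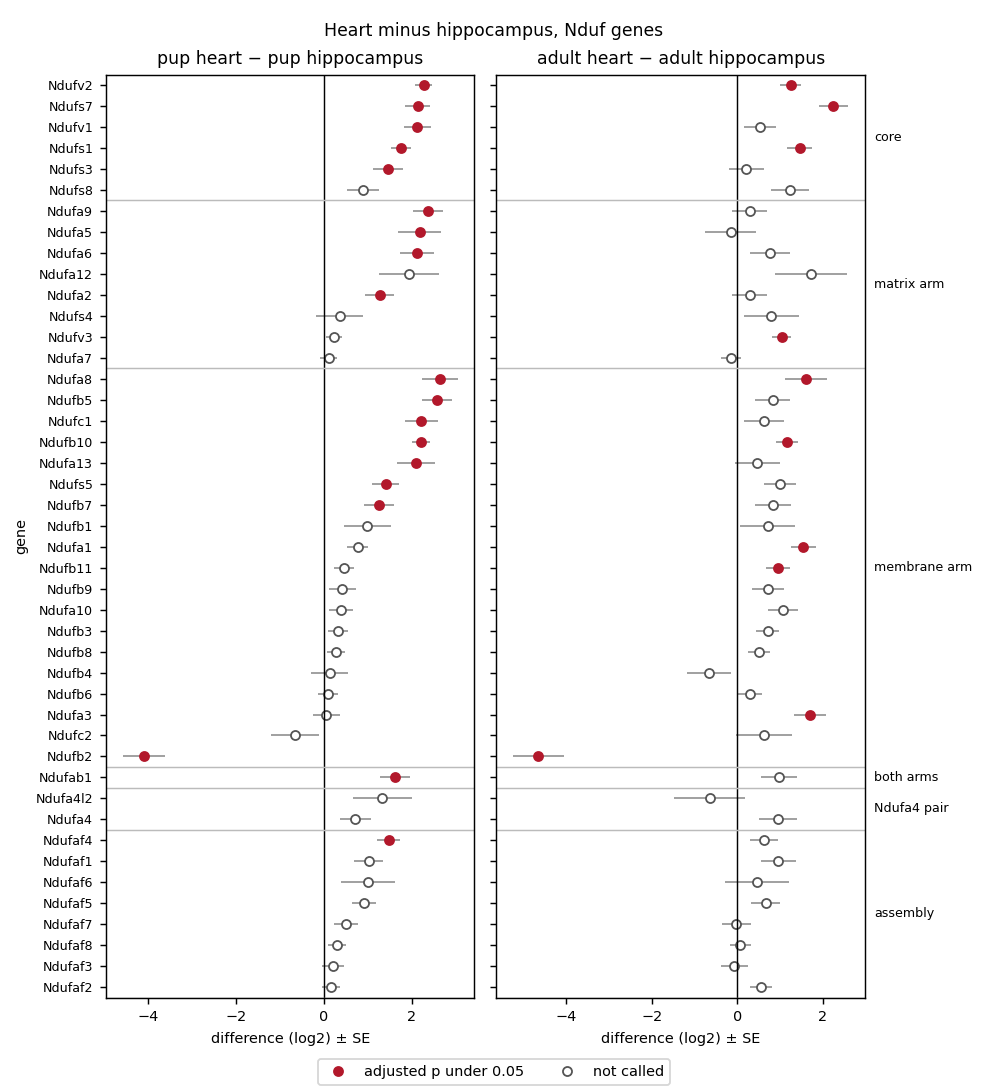
Heart minus hippocampus (log2, horizontal axis) for each of the 44 Nduf genes (vertical axis, by role) in pups (left) and adults (right), with the limma SE as bars and filled points for adjusted p under 0.05. Of the 44 points 42 lie above 0 in pups and 37 in adults, and Ndufb2 lies far below 0 in both.

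The same comparison in adults gave fewer calls. In adult heart 9 of the 44 genes were higher, 1 was lower and 34 did not pass, with a background of 10.2% higher and 9.46% lower. The difference was above 0 for 37 genes, with a median of 0.71 against 0.03 for all genes. Every adult heart value was above every adult hippocampus value for 32 of the 44 genes, against 34.5% of all genes. With 2 samples in each group the count depended on each of them: it was 4 without either adult hippocampus replicate, 4 without adult heart replicate 1 and 6 without adult heart replicate 2. Ndufs7 and Ndufb2 were the genes called in all of the 10 fits that left out a replicate.

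Of the core subunits Ndufs7, Ndufs1 and Ndufv2 were higher in adult heart. Ndufs7 was at 11.07 and 11.36 in adult hippocampus and at 13.65 and 13.29 in adult heart, 2.25 ± 0.35 higher (4.76-fold, SE, 2 against 2 samples, adjusted p = 0.00267). Ndufs1 was at 13.18 and 12.75 in adult hippocampus and at 14.20 and 14.64 in adult heart, 1.46 ± 0.29 higher (adjusted p = 0.00799). Both genes thus differed between the tissues at both ages without overlap. Ndufv2 was at 11.26 and 11.53 in adult hippocampus and at 12.75 and 12.53 in adult heart, 1.25 ± 0.25 higher (adjusted p = 0.00826). Ndufv1, at 12.18 and 12.37 in adult hippocampus and at 12.85 and 12.77 in adult heart, did not pass (0.53 ± 0.38, adjusted p = 0.376). Its other probe sets lay further apart. For 1456015_x_at the values were 10.48 and 10.29 in adult hippocampus and 12.40 and 12.47 in adult heart. Those of 1415966_a_at were 7.94 and 7.76 in adult hippocampus and 9.79 and 9.92 in adult heart. Ndufs3 was at 10.50 and 10.87 in adult hippocampus and at 10.83 and 10.94 in adult heart, with overlapping values and a difference of 0.21 ± 0.41. Ndufs8 was at 11.56 and 12.05 in adult hippocampus and at 13.15 and 12.91 in adult heart, and its difference of 1.23 ± 0.44 did not pass (adjusted p = 0.0839).

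In the matrix arm Ndufv3 was the gene that was higher in adult heart, by 1.04 ± 0.22 (adjusted p = 0.0116), with 7 of 8 not past the test. In the membrane arm 5 of 19 were higher, Ndufa1, Ndufa3, Ndufa8, Ndufb10 and Ndufb11. Ndufa3, a subunit of the part of the arm next to the matrix arm, was at 12.66 and 13.16 in adult hippocampus and at 14.87 and 14.36 in adult heart. It was higher in adult heart by 1.70 ± 0.38 (adjusted p = 0.0135), while its pup values of 15.22, 15.08 and 15.21 in hippocampus and 15.65, 15.44 and 14.57 in heart overlapped. Ndufa8 was at 10.28 and 10.63 in adult hippocampus and at 12.01 and 12.10 in adult heart. The difference of 1.61 ± 0.49 stood just past the threshold (adjusted p = 0.0498) and was lost in 8 of the 10 fits that left out a replicate. Ndufa1, at 12.84 and 12.70 in adult hippocampus and at 14.38 and 14.25 in adult heart, was 1.55 ± 0.30 higher (adjusted p = 0.00729). Ndufb2 was again the gene that was lower in heart, at 13.70 and 13.98 in adult hippocampus and at 9.18 and 9.19 in adult heart (-4.66 ± 0.59, adjusted p = 0.00116).

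**Figure D3:**
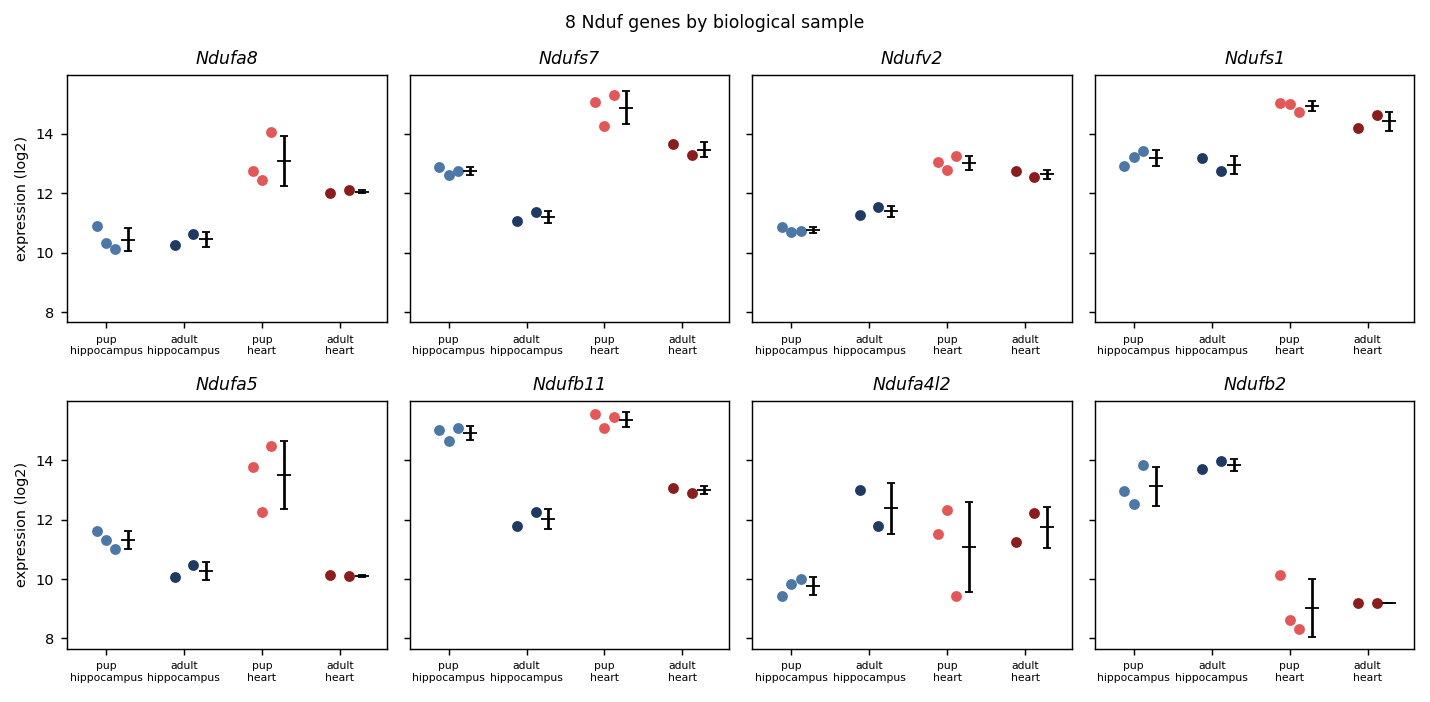
Expression (log2, vertical axis) of 8 Nduf genes in every biological sample (points) of the 4 groups, with the mean and SD of each group beside them; 3 points stand for pup groups and 2 for adult groups. Ndufa8, Ndufs7, Ndufv2 and Ndufs1 lie higher in heart at both ages, and Ndufa4l2 and Ndufb2 do not follow this pattern. The adult points of Ndufa5 and Ndufb11 lie below the pup points of the same tissue, but Ndufa5 did not pass in hippocampus.

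The next comparison asked how adult heart differed from pup heart. No Nduf gene was higher in adult heart, 19 of 44 were lower and 25 did not pass, with a background of 11.2% of all genes higher and 9.38% lower. The difference was below 0 for 37 of the 44 genes, with a median of -1.02 against 0.09 for all genes. At an unadjusted p under 0.05, 1 gene (Ndufaf5) was higher. Every adult heart value was below every pup heart value for 34 genes, where 22.0% of all genes did so. The count was 9 without adult heart replicate 1 and 9 without adult heart replicate 2. Fibroblast markers moved in the same direction: the mean of all 6 was 13.5 to 14.5 in pup heart and 10.9 in both adult heart samples, and 4 of them were lower in adults. The mean of the 5 endothelial markers was 11.8 to 12.1 in pup heart and 10.1 to 10.2 in adult heart, with 3 lower, and 3 of the 10 cardiomyocyte markers were lower in adults. The part of these markers in the Nduf differences was not tested.

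Core subunits Ndufs3, Ndufs7 and Ndufs8 were lower in adult heart. Ndufs8 went from 15.31, 14.51 and 15.03 in pup heart to 13.15 and 12.91 in adult heart, a difference of -1.92 ± 0.40 (SE, 2 against 3 samples, adjusted p = 0.0112). Ndufs3 went from 12.52, 12.08 and 13.21 to 10.83 and 10.94, a difference of -1.71 ± 0.37 (adjusted p = 0.0135), and Ndufs7 differed by -1.42 ± 0.32 (adjusted p = 0.0145). No adult heart value of these genes reached a pup heart value in the brightest probe sets. For 1423908_at of Ndufs8 the values were 10.63, 10.43 and 10.46 in pup heart and 10.46 and 10.31 in adult heart, with overlap. The other probe sets of Ndufs8 did not overlap. For 1451312_at of Ndufs7, which did not pass, they were 12.43, 11.97 and 12.44 in pup heart and 11.74 and 11.90 in adult heart. Ndufv1 (-1.01 ± 0.35), Ndufs1 (-0.52 ± 0.26) and Ndufv2 (-0.39 ± 0.23) did not pass. In the brightest probe sets of all 6 core genes every adult heart value was nonetheless below every pup heart value.

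In the matrix arm 5 of 8 were lower in adult heart, Ndufa2, Ndufa5, Ndufa6, Ndufa9 and Ndufv3. Ndufa5, a subunit of the ubiquinone-binding module, was at 13.77, 12.25 and 14.47 in pup heart and at 10.14 and 10.09 in adult heart. This difference of -3.38 ± 0.54 (10.4-fold lower, adjusted p = 0.00386) was the largest age difference among the 44 genes, although its pup heart values were widely spread. The other probe set of Ndufa5, 1417286_at, did not pass. It was at 12.86, 12.53 and 10.59 in pup heart and at 11.27 and 11.26 in adult heart, with overlap. Ndufa2, a subunit of the NADH-binding module, was at 15.29, 14.17 and 15.22 in pup heart and at 12.18 and 12.12 in adult heart (-2.74 ± 0.38, adjusted p = 0.00218). In their brightest probe sets both genes were again lowest in replicate 2 among the pup hearts.

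In the membrane arm 8 of 19 were lower in adult heart, Ndufa1, Ndufa13, Ndufb11, Ndufb3, Ndufb5, Ndufb6, Ndufb7 and Ndufc1. Ndufb5 fell from 14.95, 13.83 and 15.10 in pup heart to 11.75 and 11.76 in adult heart, a difference of -2.87 ± 0.38 (adjusted p = 0.00195). Ndufa13, also known as GRIM-19, was at 14.90, 13.11 and 14.57 in pup heart and at 11.65 and 11.62 in adult heart (-2.56 ± 0.48, adjusted p = 0.00752). Its pup and adult hearts did not overlap. Ndufab1 went from 15.34, 14.44 and 15.26 to 12.59 and 12.42 (-2.51 ± 0.39, adjusted p = 0.00331), and in hippocampus from 14.03, 13.17 and 12.99 to 11.26 and 11.80 (-1.86 ± 0.39, adjusted p = 0.0143). The other 4 probe sets of Ndufab1 passed in neither tissue, with differences of -0.71 to 0.83 in heart and -0.59 to 0.10 in hippocampus.

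In hippocampus 15 of the 44 genes were lower in adults, 2 were higher (Ndufa4l2 and Ndufaf5) and 27 did not pass, with a background of 7.44% lower and 8.63% higher. The difference was below 0 for 33 genes, with a median of -0.76 against 0.10 for all genes. Adult values were all below pup values for 25 of the 44 genes against 23.8% of all genes, and all above them for 7 against 31.3%. Without adult hippocampus replicate 1 the count was 5 and without replicate 2 it was 11. Without pup hippocampus replicate 1, the sample with the most heart marker signal, 12 were lower and 1 was higher. Neither of the 2 higher calls was left without pup hippocampus replicate 2 or 3, without either adult hippocampus replicate or with the replicate block, where 12, 14, 5, 11 and 13 genes were lower. Other markers moved with age in hippocampus. The mean of the 5 oligodendrocyte markers measured was 9.60 to 10.3 in pups and 10.99 to 11.11 in adults, with 2 higher in adults, and that of the 6 fibroblast markers 10.7 to 11.1 and 10.2 to 10.4, with 2 lower. Of the 10 cardiomyocyte and the 10 neuron markers 2 each were lower in adults, and 1 neuron marker was higher. Their part in the Nduf differences was not tested.

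Core subunits Ndufs7 and Ndufs8 were lower in adult hippocampus. Ndufs8 was at 14.23, 13.31 and 14.64 in pup hippocampus and at 11.56 and 12.05 in adult hippocampus (-2.25 ± 0.40, 4.77-fold lower, adjusted p = 0.00803). Ndufs7 was at 12.88, 12.61 and 12.76 in pups and at 11.07 and 11.36 in adults (-1.53 ± 0.32, adjusted p = 0.0139). These were the iron-sulfur subunits nearest to ubiquinone, and neither overlapped between the ages. Most other probe sets of these genes did not fall. For Ndufs7, 1451312_at differed by 0.17. Of the other 5 of Ndufs8, 1455283_x_at was lower (-2.31), while the remaining 4 differed by -0.13 to 0.32 and did not pass. Ndufs1, Ndufs3, Ndufv1 and Ndufv2 did not pass, with differences of -0.22, -0.46, 0.58 and 0.63.

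The matrix arm genes lower in adult hippocampus were Ndufa2 and Ndufv3 (2 of 8), and the membrane arm had 9 of 19 lower, Ndufa1, Ndufa10, Ndufa3, Ndufb11, Ndufb3, Ndufb6, Ndufb7, Ndufb8 and Ndufb9. For 3 of these another probe set differed in the opposite direction: 1448331_at of Ndufb7 by 0.50 and 1455934_at of Ndufb9 by 1.37, neither past the threshold, and 1458404_at of Ndufb8 by 1.87, which passed. Ndufb11, a small integral membrane subunit, was at 15.02, 14.65 and 15.08 in pup hippocampus and at 11.78 and 12.26 in adult hippocampus, a difference of -2.90 ± 0.26 (7.45-fold lower, adjusted p = 0.000736). In heart the same gene was at 15.57, 15.09 and 15.45 in pups and at 13.08 and 12.89 in adults (-2.39 ± 0.26, adjusted p = 0.000899). Pup and adult values of Ndufb11 were thus far apart in both tissues. Ndufa3 was at 15.22, 15.08 and 15.21 in pup hippocampus and at 12.66 and 13.16 in adult hippocampus (-2.26 ± 0.34, adjusted p = 0.0043), while in heart the adult values of 14.87 and 14.36 overlapped the pup values. Ndufb6, a subunit of the distal membrane arm, was at 15.43, 15.36 and 15.32 in pup hippocampus and at 12.87 and 13.58 in adult hippocampus (-2.15 ± 0.26, adjusted p = 0.0017).

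By brightest probe set 11 genes were lower in adults in both tissues: Ndufa1, Ndufa2, Ndufa4, Ndufab1, Ndufb11, Ndufb3, Ndufb6, Ndufb7, Ndufs7, Ndufs8 and Ndufv3. In hippocampus some or all of the other probe sets of Ndufab1, Ndufb7, Ndufs7 and Ndufs8 did not pass, as given above. The other probe set of Ndufb6, 1434056_a_at, passed in neither tissue, although every adult value was below every pup value of its tissue. It was at 9.64, 9.16 and 9.47 in pup hippocampus and at 8.79 and 8.71 in adult hippocampus. In heart it was at 11.42, 10.21 and 11.23 in pups and at 9.89 and 10.19 in adults. The 11 genes made up 73.3% of the genes lower in adult hippocampus and 57.9% of those lower in adult heart. Over all genes 3.57% were lower in both tissues, which is 47.9% of the genes lower in adult hippocampus and 38.0% of those lower in adult heart. The difference between these shares was not tested. Ndufa10, Ndufa3, Ndufb8 and Ndufb9 passed in hippocampus and not in heart, and Ndufa13, Ndufa5, Ndufa6, Ndufa9, Ndufaf4, Ndufb5, Ndufc1 and Ndufs3 in heart and not in hippocampus. Whether the age difference itself differed between the tissues was tested as the interaction: the adult minus pup difference of heart, less that of hippocampus. None of the 44 genes passed this test in limma, with a background of 3.68% of all genes. At an unadjusted p under 0.05 there were 11 of the 44, 25%, against 20.3% of all genes. The smallest adjusted p was that of Ndufa9, 0.0676, with an age difference of -1.77 in heart and 0.31 in hippocampus. Without pup heart replicate 2, the lowest pup heart for most Nduf genes, 5 passed: Ndufa5 (-2.96), Ndufa9 (-2.36), Ndufa13 (-2.17), Ndufb5 (-2.15) and Ndufa6 (-1.80). With each of the 14 arrays as a sample 7 passed, and with the replicate as a random block 5 passed. The age comparisons share their pup and adult samples with the tissue comparisons, so the 4 sets of differences are not independent.

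**Figure D4:**
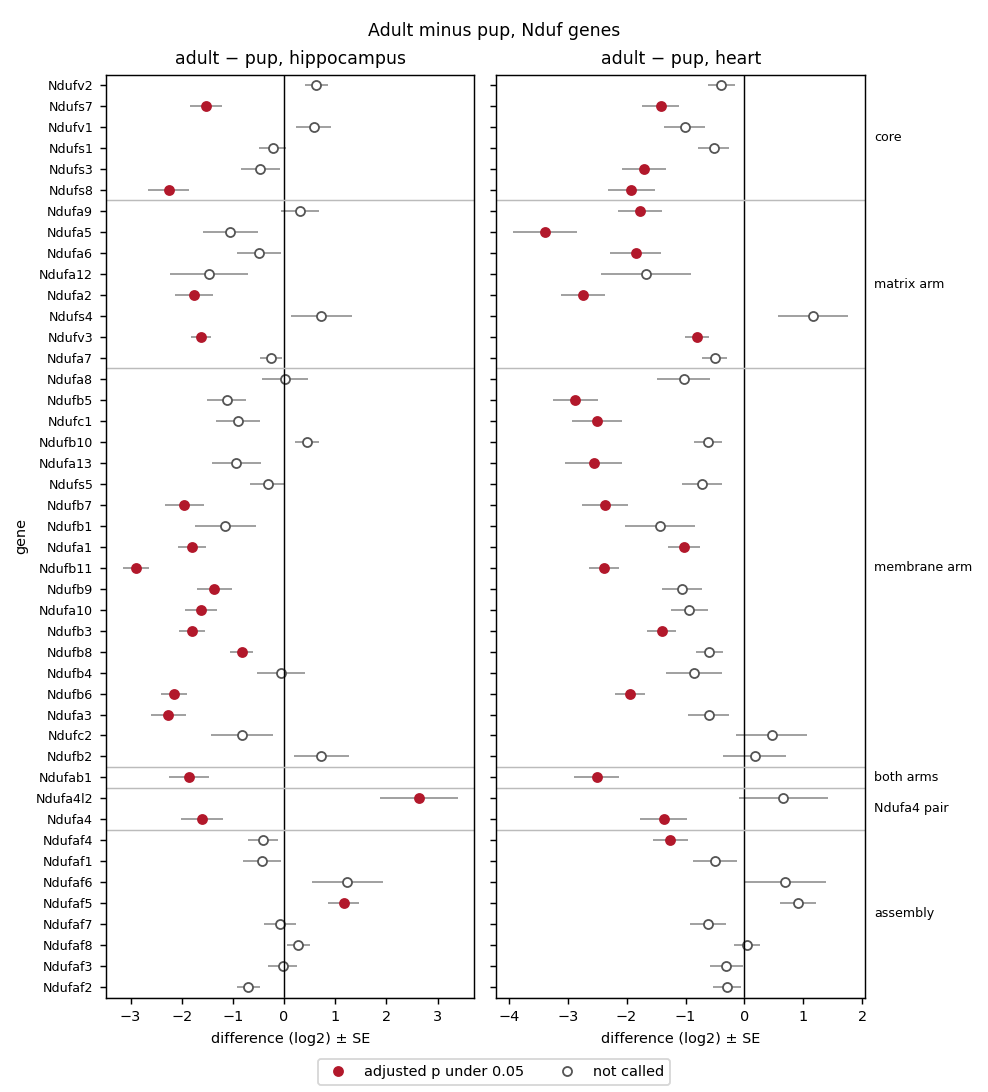
Adult minus pup (log2, horizontal axis) for each of the 44 Nduf genes (vertical axis, by role) in hippocampus (left) and heart (right), with the limma SE as bars and filled points for adjusted p under 0.05. Most subunit genes lie below 0 in both panels, while the assembly factors at the bottom lie on both sides of 0, from -0.70 to 1.24 in hippocampus and from -1.26 to 0.91 in heart.

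Ndufa4 and Ndufa4l2 are paralogs. Ndufa4 was first assigned to complex I and is now known as a subunit of cytochrome c oxidase, and Ndufa4l2 is known as a gene induced in low oxygen. Ndufa4 was at 14.82, 14.33 and 13.73 in pup hippocampus and at 12.37 and 13.01 in adult hippocampus. It was lower in adults, with a difference of -1.60 ± 0.40 (adjusted p = 0.0278). In heart it was at 15.40, 15.23 and 14.40 in pups and at 13.74 and 13.53 in adults (-1.37 ± 0.40, adjusted p = 0.041). Ndufa4l2 was at 9.41, 9.84 and 10.00 in pup hippocampus and at 12.99 and 11.78 in adult hippocampus, the other direction. It was higher in adults by 2.63 ± 0.76 (6.21-fold, adjusted p = 0.0458), the largest increase with age among the 44 genes. The 2 technical arrays of 1 adult hippocampus replicate differed by 3.97, more than this difference. The call was lost in 8 of the 10 fits that left out a replicate, all but those without pup heart replicate 2 or 3. It was also lost with each array as a sample and with the replicate block. In heart its values of 11.50, 12.33 and 9.41 in pups and 11.24 and 12.23 in adults overlapped (0.66 ± 0.76). Neither gene passed between the tissues at either age, and neither passed the interaction test.

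The 8 Ndufaf genes code for assembly factors. In pup heart against pup hippocampus 1 of 8 was higher (7.43% of all genes), in adult against pup heart 1 was lower (9.38%) and in adult against pup hippocampus 1 was higher (8.63%), which is close to the background each time. In adult heart against adult hippocampus none passed in limma, where 10.2% of all genes were higher and 9.46% lower. At an unadjusted p under 0.05 the count for the adult tissues was 1 of 8, against 32.7% of all genes. Their median difference was 0.71 between the pup tissues, 0.51 between the adult tissues, -0.30 between the ages in heart and -0.05 in hippocampus. For the 36 subunit genes the same medians were 1.26, 0.78, -1.22 and -0.99. The difference between these medians was not tested.

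Ndufaf4, which acts with Ndufaf3 early in assembly, was at 9.18, 9.28 and 9.30 in pup hippocampus, at 8.90 and 8.79 in adult hippocampus, at 10.79, 10.17 and 11.23 in pup heart and at 9.53 and 9.40 in adult heart. It was higher in pup heart than in pup hippocampus by 1.47 ± 0.27 (adjusted p = 0.00537) and lower in adult than in pup heart (-1.26 ± 0.30, adjusted p = 0.018). In the brightest probe set pup heart thus stood above the other 3 groups with no overlap. The other probe set of Ndufaf4, 1435333_at, passed in neither comparison, although both differences kept their direction. Its pup heart values were 9.13, 7.68 and 8.91. Replicate 2 lay below every pup hippocampus value, of which the lowest was 8.21, and below the adult heart value of 8.04. Ndufaf5, which modifies Ndufs7, was at 10.72, 10.14 and 10.26 in pup hippocampus and at 11.54 and 11.53 in adult hippocampus, an increase of 1.16 ± 0.31 (adjusted p = 0.0354). In heart it was at 11.23, 11.68 and 10.96 in pups and at 11.86 and 12.54 in adults. This difference of 0.91 ± 0.31 did not pass (adjusted p = 0.0696), with adults above pups in every sample. Ndufs7 itself was lower in adults in both tissues by its brightest probe set, while its other probe set passed in neither, as given above.

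The other 6 Ndufaf genes passed in no comparison. Ndufaf1, a member of the assembly complex that also holds Ecsit and Acad9, was at 6.75, 7.37 and 7.71 in pup hippocampus, 6.99 and 6.70 in adult hippocampus, 7.90, 8.05 and 8.94 in pup heart and 7.84 and 7.76 in adult heart. Heart lay above hippocampus at both ages without overlap, by 1.02 ± 0.33 in pups (adjusted p = 0.0731) and 0.95 ± 0.41 in adults. Ndufaf2, a paralog of Ndufa12, was at 8.03, 8.51 and 8.38 in pup hippocampus, 7.57 and 7.65 in adult hippocampus, 8.66, 8.23 and 8.51 in pup heart and 8.21 and 8.14 in adult heart. In both tissues every adult value was below every pup value, with differences of -0.70 ± 0.23 in hippocampus (adjusted p = 0.0731) and -0.30 ± 0.23 in heart. Ndufaf3 was at 9.62, 9.36 and 9.23 in pup hippocampus, 9.28 and 9.47 in adult hippocampus, 9.89, 9.24 and 9.70 in pup heart and 9.61 and 8.99 in adult heart, with all groups overlapping. Ndufaf6 had wide spreads, at 12.58, 12 and 13.17 in pup hippocampus, 13.94 and 13.70 in adult hippocampus, 13.92, 14.81 and 12.02 in pup heart and 14.40 and 14.16 in adult heart. The third pup heart sample was among the lowest of all 10. Ndufaf7, a methyltransferase that acts on a core subunit, was at 8.65, 8.77 and 8.27 in pup hippocampus, 8.38 and 8.58 in adult hippocampus, 9.63, 8.72 and 8.87 in pup heart and 8.32 and 8.60 in adult heart. Ndufaf8, the partner of Ndufaf5, was at 15.05, 15.00 and 14.66 in pup hippocampus, 15.24 and 15.12 in adult hippocampus, 15.02, 15.30 and 15.28 in pup heart and 15.14 and 15.35 in adult heart. Neither Ndufaf7 nor Ndufaf8 separated heart from hippocampus at both ages, and all these Ndufaf8 values lay near the top of the scale. The other probe set of Ndufaf8, 1448003_at, was lower on the scale. It was at 10.78, 11.63 and 11.95 in pup hippocampus and 11.05 and 11.99 in adult hippocampus. In heart it was at 12.84, 14.75 and 11.87 in pups and 12.50 and 14.10 in adults.

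Complex I assembly factors without an Nduf symbol were measured for 11 of 12 listed genes. In pup heart against pup hippocampus Aifm1 (1.33), Dmac2 (1.12) and Tmem126b (2.00) were higher and Ecsit (-1.80) was lower, 3 and 1 of 11 against 7.43% and 8.27% of all genes. In adult heart against adult hippocampus Aifm1 (1.18) and Dmac2 (1.24) were higher and Acad9 (-1.70) was lower, 2 and 1 of 11 against 10.2% and 9.46%. Acad9, a flavoprotein needed for assembly, was higher in adult than in pup hippocampus by 1.54 ± 0.43 (adjusted p = 0.0397), and Dmac1 (-1.01) and Nubpl (-1.61), an iron-sulfur carrier for complex I, were lower in adult than in pup heart. These were 1 of 11 higher in hippocampus and 2 of 11 lower in heart, where 8.63% and 9.38% of all genes were. The median difference of the 11 genes was 0.72 between the pup tissues, 0.11 between the adult tissues, -0.26 between the ages in heart and -0.11 in hippocampus, against 0.10, 0.03, 0.09 and 0.10 for all genes.

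Of 16 listed regulators of mitochondrial biogenesis and of respiratory genes, Ppargc1a (1.59 ± 0.29, adjusted p = 0.00609) and Esrrg (1.15 ± 0.19) were higher in pup heart than in pup hippocampus, 2 of 16 where 7.43% of all genes were higher. None passed between the adult tissues in limma, where 5 of 16 had an unadjusted p under 0.05, against 32.7% of all genes. Ppargc1a and Ppargc1b code for coactivators of such genes, and Esrrg for a nuclear receptor of the estrogen-related family. Ppargc1b was lower in adults in both tissues, with differences of -2.28 ± 0.37 in heart and -1.34 ± 0.37 in hippocampus. Esrrg (1.08) and Pprc1 (1.05) were higher in adult than in pup hippocampus. For Esrrg the age difference differed between the tissues (interaction -1.47 ± 0.30, adjusted p = 0.0322). Gabpa, Nrf1, Yy1 and Esrra, which code for factors of the motifs above, passed in none of the 5 tests.

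The probe set that stood for a gene mattered for some of the results. The 44 genes had 88 probe sets, and 22 genes had more than 1. Of the 44 chosen probe sets 18 had an s, x or a in their name, which marks probes that can match several transcripts. Over all 88 probe sets, 42 were higher and 1 lower in pup heart against pup hippocampus, with a background of 6.77% and 7.52% of all probe sets. Between the adult tissues 24 were higher and 1 lower in heart, against 11.9% and 10.3%. In adult against pup heart 34 were lower and none higher, against 8.32% and 11.7%, and in adult against pup hippocampus 25 were lower and 3 higher, against 6.52% and 8.38%. All probe sets of a gene were called higher in pup heart for 7 of the 22 genes: Ndufa5, Ndufb5, Ndufb7, Ndufc1, Ndufs7, Ndufv1 and Ndufv2. All were called lower in adult heart for Ndufb11, Ndufb5, Ndufb7 and Ndufc1. In adult against pup hippocampus all passed for 2 of the 22 genes, Ndufb11 and Ndufb8. Those of Ndufb11 were lower in adults, and those of Ndufb8 went in opposite directions. Between the adult tissues all were called higher in heart for Ndufa3 and Ndufs7.

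In Ndufb2 and Ndufb8 probe sets passed in opposite directions. For Ndufb2, the probe set 1442658_at was lower in pup heart, as given above, while 1416834_x_at was at 10.86, 10.90 and 9.87 in pup hippocampus and at 12.56, 12.29 and 11.82 in pup heart (1.68 ± 0.32, adjusted p = 0.00671). The remaining probe set, 1448483_a_at, was at 10.56, 10.50 and 10.41 in pup hippocampus and at 12.19, 11.12 and 13.00 in pup heart (1.62 ± 0.40, adjusted p = 0.0229). Between the adult tissues these differed by 0.14 and 0.73 and did not pass, so the direction of Ndufb2 between the tissues depends on the probe set. For Ndufb8 in hippocampus, 1448198_a_at went from 15.47, 15.33 and 15.38 in pups to 14.28 and 14.84 in adults (-0.83 ± 0.24, adjusted p = 0.0454), while the dimmer 1458404_at rose from 7.23, 6.98 and 7.16 to 8.89 and 9.10 (1.87 ± 0.36, adjusted p = 0.0100).

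In some genes, among them Ndufc2 and Ndufv2, the chosen probe set did not pass with age while others did. Counted by any probe set, 25 of the 44 genes were lower in adult heart, against 19 by the chosen ones. In hippocampus these counts were 18 and 15. The share of all genes counted in this way was not computed. The chosen probe set of Ndufc2, a membrane arm subunit, was at 14.54, 14.41 and 14.41 in pup hippocampus, 13.34 and 13.91 in adult hippocampus, 14.60, 14.47 and 12.30 in pup heart and 14.52 and 13.98 in adult heart. It passed in no comparison, and its value in pup heart replicate 3 stood apart. The probe set 1455036_s_at was at 15.27, 15.14 and 15.37 in pup hippocampus and at 11.94 and 12.35 in adult hippocampus (-3.12 ± 0.25, adjusted p = 0.000311). In heart it was at 15.46, 15.00 and 15.37 in pups and at 12.61 and 12.47 in adults (-2.74 ± 0.25, adjusted p = 0.000414). Of the other two, 1416366_at was lower in adults in both tissues (-2.76 and -2.60) and 1460506_s_at in heart (-2.14). For Ndufv2 the probe sets 1452692_a_at and 1438159_x_at were lower in adult heart (-2.79 and -2.69) and in adult hippocampus (-2.12 and -2.09), all past the threshold, while the chosen one differed by -0.39 and 0.63 without passing. Between the pup tissues all 3 probe sets of Ndufv2 were higher in heart, by 2.07 to 2.42.

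**Figure D5:**
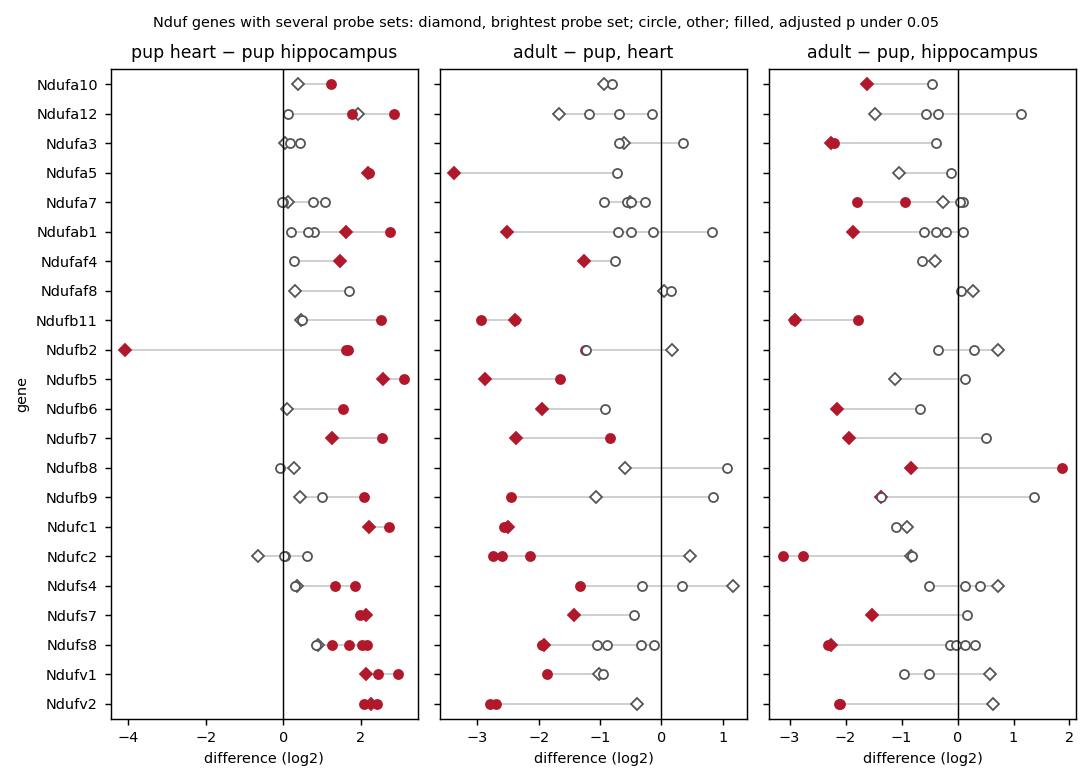
Differences (log2, horizontal axes) of every probe set of the 22 Nduf genes with more than 1 probe set (vertical axis) for pup heart minus pup hippocampus, adult minus pup heart and adult minus pup hippocampus; diamonds are the brightest probe set, circles the others, and filled symbols have adjusted p under 0.05. Probe sets of Ndufb2 lie on both sides of 0 in the left panel, and those of Ndufc2 and Ndufv2 are spread widely in the age panels.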

How the data were processed

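Gene expression in heart and hippocampus of mouse pups and adults was measured on 14 Affymetrix mouse genome arrays. The log2 values deposited by the authors came from an upper decile summary of the probes made with RMA (2.0 in the submitters' processing notes). The scaling that the methods describe had not been applied to the deposited values, which lay between 2.67 and 16 with 0 missing, and was run as an alternative. Whether the adult RNA was mRNA or total RNA differs between the sources. Detection calls were not used here.

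Of 45101 probe sets, 34958 named 1 gene, 932 several and 9211 none, and 64 were array controls. Each of 18194 genes was given by the probe set with the highest mean over the arrays. The 2 technical arrays behind each adult replicate were averaged. A mean for each of the 4 groups was fitted to all genes with lmFit and eBayes of limma 3.58.1 (statmod 1.5.0, R 4.3.3), with 6 residual and 3.10 prior degrees of freedom. Tests were two-sided, with Benjamini-Hochberg adjustment over all genes of a comparison and a threshold of 0.05. "Higher", "lower", "rose", "fell" and "passed" refer to this threshold. No filter on low values was used. With a filter that kept genes above the median of all genes, 35 of the 44 Nduf genes remained. Precision is limited by how few arrays there were: the median SE of an age difference was 0.34, of a tissue difference 0.30 in pups and 0.37 in adults, and of the interaction 0.48. The script was checked on simulated data.

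Genes with full values were the core subunits, the 4 largest called differences each way in each comparison, the Ndufaf genes and the Ndufa4 pair. Ndufa12, the probe sets that disagree and Ndufs4 were added after their values were seen. The Nduf genes, the other gene lists, the markers and the motifs were chosen with earlier results of these data known. Alternatives were another scaling, a filter on low values, the mean over probe sets, other probe set types, single arrays, blocks, other fits, the methods' t-test and leaving out each replicate. Each other probe set of a gene was added after seeing the data. Figures were drawn with matplotlib 3.10.9.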

Additional observations from a re-analysis of the deposited data

Results flagged for a closer look

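The age difference of the probe set 1418814_s_at of Ndufa12 was the 1 result among the 88 Nduf probe sets in which the tissues differed past the threshold. In heart it was at 11.76, 10.76 and 12.18 in pups and at 10.32 and 10.45 in adults, and in hippocampus at 9.66, 9.93 and 9.77 in pups and at 10.78 and 11.05 in adults. Its age difference was -1.18 ± 0.37 in heart and 1.12 ± 0.37 in hippocampus (limma adjusted p = 0.0504 and 0.0712, neither passed), and the difference between these was -2.31 ± 0.53 (adjusted p = 0.0453). The other 3 probe sets of Ndufa12 gave interactions of -0.20, -0.13 and 0.18 and did not pass. Of all probe sets 1.18% were called lower in this test.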

How the results depend on the processing

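The counts of Nduf genes called (17 in adult against pup hippocampus, 19 in adult against pup heart, 19 between the pup tissues, 10 between the adult tissues and 0 for the interaction) ranged from 5 to 19, 9 to 21, 14 to 21, 4 to 11 and 0 to 5 when each replicate was left out in turn. Of the called genes 5, 9, 13 and 2 were called in all of these 10 fits, and no called gene changed sign in them. Where an adult group was left with 1 sample, that sample was assumed to vary like the other groups. Without probe sets of the s, x and a types 35 genes were left, with 10 and 12 calls for age in hippocampus and heart. With the mean over probe sets 16 genes passed between the adult tissues, with each array as a sample 22, and with the replicate as a random block 20, and the last pair gave 7 and 5 for the interaction. With only the 2 groups compared in the fit 12 passed between adult and pup heart. The methods' t-test with Benjamini-Hochberg adjustment passed 4 genes (Ndufa3, Ndufb11, Ndufs7 and Ndufv3) in hippocampus, 0 in heart, 3 (Ndufb10, Ndufs1 and Ndufv2) between the pup tissues and 0 between the adult tissues, and 0 in each at its stated false discovery rate of 0.1%. The causes of these changes were not tested.

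Replicate numbers were shared by the groups. Same-numbered samples of the pup tissues deviated together with r = 0.20, -0.09 and 0.00, and those of the adult tissues with r = -0.06, so the numbers were not taken as pairs. With the replicate block 13, 19, 20, 9 and 0 genes passed. Median centring, the methods' scaling (centring and division by each array's percentile range) and quantile normalization moved the median of all genes by up to 0.15 (adult minus pup heart, 0.09 to -0.07 under median centring), and the median of the Nduf genes kept its sign in all 5 comparisons.

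The direction of some genes changed with the probe set. Without the s, x and a types, the adult minus pup difference in hippocampus was 0.50 for Ndufb7, 1.87 for Ndufb8 and 0.17 for Ndufs7, and with the mean over probe sets it was 0.52 for Ndufb8. The same values came from the single probe sets 1448331_at (0.50), 1458404_at (1.87) and 1451312_at (0.17). In hippocampus the difference was 0.10 for 1435934_at of Ndufab1, 1.37 for 1455934_at of Ndufb9, 0.32 and 0.13 for 1423907_a_at and 1434213_x_at of Ndufs8, and -2.09 and -2.12 for 1438159_x_at and 1452692_a_at of Ndufv2. In heart it was 0.83 for 1453565_at of Ndufab1. Between the tissues 1416834_x_at and 1448483_a_at of Ndufb2 differed by 1.68 and 1.62 in pups and by 0.14 and 0.73 in adults.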

Other observations

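Probe sets that name an Nduf gene together with another gene were left out of the counts above, since their signal cannot be assigned. The probe set 1433603_at, which names Ndufs6 and Ndufs6b, was higher in pup heart than in pup hippocampus (2.52 ± 0.46, adjusted p = 0.00531) and lower in adult than in pup heart (-2.49 ± 0.52, adjusted p = 0.00925). The probe set 1429708_at, which names Ndufa11 and Ndufa11b, was also higher in pup heart (2.11 ± 0.33, adjusted p = 0.00223), while 1444154_at, which names the same genes, differed by -0.03 ± 0.41. The probe set 1447919_x_at, which names Ndufab1 and the pseudogene Ndufab1-ps, was lower in adults in hippocampus (-1.64) and heart (-1.97) and higher in heart in pups (2.20) and adults (1.87). The probe set 1439903_at, which names Ndufa13 and Yjefn3, was higher in adult than in pup hippocampus (1.08 ± 0.30, adjusted p = 0.0384).

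Ndufs4, a matrix arm subunit gene with 4 probe sets, passed in no comparison with its brightest probe set, which was at 11.41, 12.48 and 13.43 in pup hippocampus. Its probe set 1448959_at was higher in pup heart than in pup hippocampus (1.85 ± 0.35, adjusted p = 0.00624) and lower in adult than in pup heart (-1.32 ± 0.39, adjusted p = 0.0405), and 1438166_x_at was higher in pup heart (1.33 ± 0.24, adjusted p = 0.00439). The brightest probe set differed by 0.36 ± 0.52 and 1.17 ± 0.58 in these comparisons.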
